A study of Mus musculus with 12 samples.

Results

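Rpsa encodes the ribosomal protein SA (uS2), a protein of the small (40S) ribosomal subunit that is also known as the laminin receptor, because a form of it at the cell surface binds laminin of the basement membrane. Ribosomal protein genes are transcribed strongly in nearly every cell, and their spliced messages have been copied back into the mouse genome many times. Such a copy, a processed pseudogene, has no introns and can be almost identical to the message of its parent gene, so that short reads do not always show which of them they came from. Rpsa-ps10 is one of the annotated processed pseudogenes of Rpsa. Both genes were found by their mouse symbols among the Ensembl gene identifiers of the count data, and they are 2 of the 49548 genes counted and 2 of the 15942 genes with enough counts to be tested. Rpsa-ps10 was selected on its counts, which were higher in MFN2 than in WT animals. That difference is therefore described here and not tested. The level of Rpsa, the comparison of both genes between runs of libraries and the other gene groups were not used for the choice. Reads that fit both genes may be counted on either, so the level of Rpsa may not be independent of the choice.

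RNA of the lumbar spinal cord, the segment that serves the hind limbs, was sequenced from 12 untreated mice at 30 days of age, with 1 library per mouse. The 8 MFN2 mice, labelled CMT2A, are MitoCharc1 animals with the transgene Tg(Eno2-MFN2*R94Q)L51Ugfm on a B6;D2 background, in which the neuron-specific rat Eno2 promoter drives human MFN2 with R94Q, a mutation found in the axonal neuropathy Charcot-Marie-Tooth disease type 2A. They are hemizygous and retain the mouse Mfn2 gene. The 4 WT mice are labelled C57BL/6. The methods describe the WT controls as littermates. B6;D2 in the strain name stands for a mixed C57BL/6 and DBA/2 background, and the strain at either Rpsa locus was not typed here. Each library is named by its number in the sample title: 41, 42, 43, 72, 73, 74, 75 and 76 in MFN2 animals, and 44, 45, 46 and 47 in WT animals. Nothing in the labels says what the runs of numbers 41 to 47 and 72 to 76 stand for. As all WT libraries fall in the first run, the genotype and the second run cannot be told apart in the libraries 72 to 76. Total counts ranged from 19359454 to 26738930 per library.

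On GRCm38, Rpsa (ENSMUSG00000032518) lies on the plus strand at chr9:120127689-120132369 and has 7 exons, of which 6 hold coding sequence. Rpsa-ps10 (ENSMUSG00000047676) lies on the minus strand at chr3:150072658-150073542 and is a single block of 885 bases. In the annotation it sits alone: the nearest annotated gene, Gm31121, is 412262 bases away. The 885 coding bases of Rpsa without the stop codon align with Rpsa-ps10 from end to end with no insertion or deletion, and 879 of them are identical (99.3%). The 6 differences, counted from 1 at the first base of the Rpsa start codon and written with the Rpsa base first, are C25A in exon 2, T210C and C219T in exon 3, C345G in exon 4, C696T in exon 6 and G858A in exon 7. The stretches that hold them are shown because only read pairs that cover 1 of these bases with either read, or that reach outside the copied sequence, can separate the genes. The differing bases are in capitals, and each sequence is taken from the annotated transcripts (GENCODE M21).

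Rpsa, coding bases 5 to 45, chr9:120128494-120128534, plus strand: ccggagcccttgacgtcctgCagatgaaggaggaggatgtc
Rpsa-ps10, the same bases, chr3:150073498-150073538, minus strand: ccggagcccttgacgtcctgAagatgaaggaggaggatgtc
Rpsa, coding bases 190 to 239, chr9:120129214-120129263, plus strand: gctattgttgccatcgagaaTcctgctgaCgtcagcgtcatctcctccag
Rpsa-ps10, the same bases, chr3:150073304-150073353, minus strand: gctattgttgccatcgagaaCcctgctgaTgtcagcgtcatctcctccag
Rpsa, coding bases 325 to 365, chr9:120130190-120130230, plus strand: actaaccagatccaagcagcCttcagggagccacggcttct
Rpsa-ps10, the same bases, chr3:150073178-150073218, minus strand: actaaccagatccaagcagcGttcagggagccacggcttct
Rpsa, coding bases 676 to 716, chr9:120131048-120131088, plus strand: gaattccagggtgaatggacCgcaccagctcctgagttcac
Rpsa-ps10, the same bases, chr3:150072827-150072867, minus strand: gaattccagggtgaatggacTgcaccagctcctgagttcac
Rpsa, coding bases 838 to 878, chr9:120131444-120131484, plus strand: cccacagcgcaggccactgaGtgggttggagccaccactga
Rpsa-ps10, the same bases, chr3:150072665-150072705, minus strand: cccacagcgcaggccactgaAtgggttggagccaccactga

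Between coding bases 346 and 695 the genes share an uninterrupted run of 350 identical bases. Cut into all 811 windows of 75 bases, the length of the reads, 524 windows (64.6%) were identical in the parent and the pseudogene. Of these, 313 (59.7%) cross a junction between Rpsa exons. A read of such a window aligns to Rpsa only when it is spliced, whereas it aligns to Rpsa-ps10 without a gap. Only 24.8% of the Rpsa-ps10 windows were found in no other annotated transcript, since 456 windows also occur in a gene other than this pair. Of the coding windows of Rpsa, 77 (9.49%) were found in no other gene, and 717 also occur in 1 or more annotated Rpsa pseudogenes, Rpsa-ps10 included. These windows stand for single reads. The libraries were sequenced in read pairs, and a read in a shared window can be placed by its mate, so the share of pairs that fit both genes may be smaller and was not computed. The counts of the parent and the pseudogene are uncertain wherever both reads of a pair fall in shared sequence. How such reads were assigned is not given in the sources used here, and their part in the results was not tested.

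**Figure D1:**
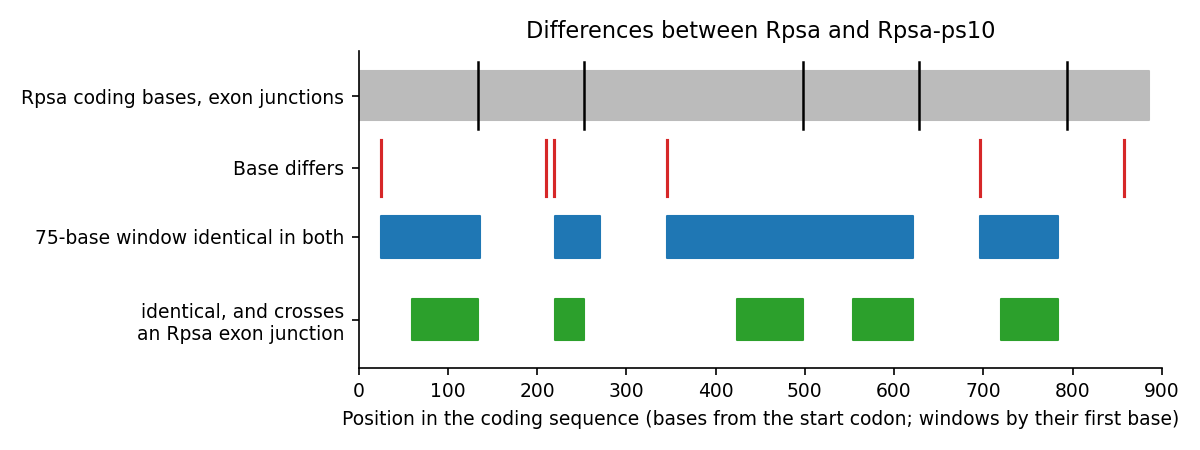
Positions along the coding sequence of Rpsa (horizontal axis, bases from the start codon). From top to bottom, the rows show the coding bases with the 5 exon junctions as black lines, the 6 bases that differ in Rpsa-ps10 as red lines, the first bases of the 524 windows of 75 bases that are identical in both genes in blue, and those of the 313 windows that also cross an Rpsa junction in green.

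One library stood apart. Library 43 (MFN2) held a summed 4595 CPM (counts per 1e6 counts, scaled by TMM) over 7 genes of forebrain neurons, led by Camk2a at 1920 CPM, while the other 11 libraries held between 108 and 207 CPM. Its 4 genes of the caudal cord (Hox genes, led by Hoxb8) summed to 27.3 CPM, against 158 to 220 CPM in the other libraries, and its 4 motor neuron genes to 12 CPM, against 46.5 to 104 CPM. The tissue label is thus not met by its own markers in library 43 as it is in the others. Rpsa at 252 CPM and Rpsa-ps10 at 37.3 CPM in library 43 lay within the range of the other MFN2 libraries, and the main results for both genes are given with and without it. In bulk tissue, fewer cells of a type and less RNA per cell cannot be told apart.

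Rpsa-ps10 was low in all WT animals and higher in every MFN2 animal, with 1 MFN2 animal close to WT. In WT libraries 44, 45, 46 and 47, Rpsa-ps10 was at 1.35, 2.26, 1.64 and 1.98 CPM, from 31, 48, 37 and 38 counts. In MFN2 libraries 41, 42 and 43 it was at 78.4, 42 and 37.3 CPM, from 2055, 1101 and 795 counts. In MFN2 libraries 72, 73, 74, 75 and 76 it was at 56.9, 32.7, 30.2, 38.5 and 3.42 CPM, from 1296, 652, 750, 994 and 67 counts. The genotypes did not overlap, but library 76 lay nearer to the highest WT library than to any other MFN2 library. All 8 MFN2 libraries above all 4 WT libraries is a pattern that 0.979% of the tested genes showed, and as it is the pattern the gene was chosen for, nothing is read from it. The mean was 39.9 ± 21.6 CPM in MFN2 animals (SD, n = 8) and 1.81 ± 0.396 CPM in WT animals (SD, n = 4), a 22.1-fold ratio of means. The fitted log2 fold change was 4.47. Without library 76 the MFN2 mean was 45.2 ± 17.0 CPM (SD, n = 7), and leaving out any 1 library kept the log2 fold change between 4.25 and 4.64 (4.49 without library 43).

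Rpsa was lower on average in MFN2 than in WT animals, and the genotypes overlapped. In WT libraries 44, 45, 46 and 47, Rpsa was at 338, 416, 390 and 366 CPM. In MFN2 libraries 41, 42 and 43 it was at 261, 361 and 252 CPM, and in libraries 72, 73, 74, 75 and 76 at 190, 247, 233, 279 and 369 CPM. The MFN2 animals 42 and 76 lay within the WT range, and the other 6 MFN2 animals lay below every WT animal. The means were 274 ± 61.8 CPM in MFN2 (SD, n = 8) and 377 ± 33.1 CPM in WT animals (SD, n = 4). The log2 fold change was -0.46 with a standard error of 0.15 and did not pass the threshold across all genes (adjusted p = 0.278, edgeR's quasi-likelihood test, adjusted by Benjamini-Hochberg). In that fit 0 of 15942 genes passed (0% called), although 2386 had an unadjusted p under 0.05 and DESeq2 called 200 (1.25% called), with an adjusted p of 0.127 for Rpsa. Taken as a single gene, the mean log2 CPM differed by -0.49 (two-sided exact permutation test over 495 assignments of the libraries, p = 0.0263, the smallest possible being 0.00202). If shared reads were counted on Rpsa-ps10 in place of Rpsa, a lower Rpsa in MFN2 animals would follow in part from the choice. The tests of Rpsa cannot separate this, and the part of shared reads was not tested. Without library 43, the fitted log2 fold change of Rpsa was -0.45 (adjusted p = 0.154, edgeR) and the exact permutation p was 0.0333, and over all libraries left out in turn the fold change lay between -0.53 and -0.40. The exact p rose to 0.0788 without WT library 45 and to 0.0667 without WT library 46.

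Within the first run of library numbers, which holds both genotypes, Rpsa in MFN2 libraries 41 to 43 differed from WT by -0.39 in mean log2 CPM (two-sided exact permutation test, n = 3 and 4, p = 0.0571, smallest possible 0.0286). With edgeR the same comparison gave a log2 fold change of -0.36 (adjusted p = 0.622). Libraries 72 to 76 against WT gave -0.52 (adjusted p = 0.0493, edgeR's quasi-likelihood test). In that comparison 3746 of 15743 genes passed (23.8% called), and the genotype and the run cannot be told apart.

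**Figure D2:**
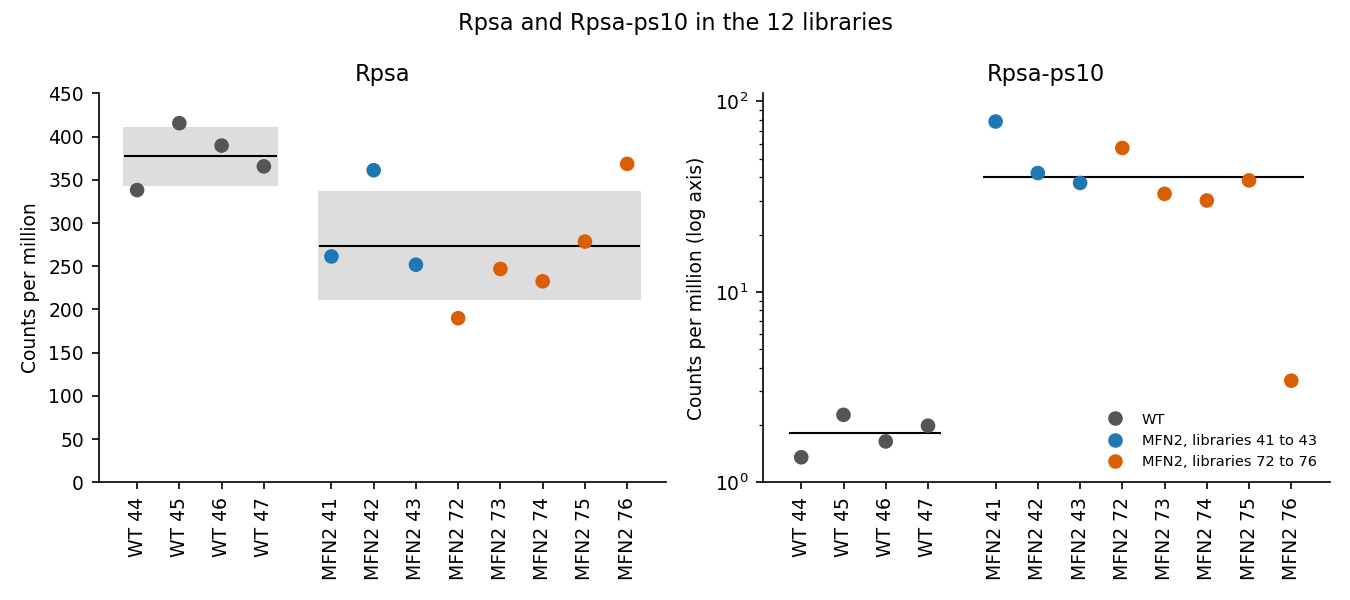
Levels in CPM (vertical axes, linear for Rpsa at left, logarithmic for Rpsa-ps10 at right) in each library (horizontal axes); points are libraries, lines are group means, and grey bands are ± 1 SD for Rpsa. Rpsa-ps10 lies between 30.2 and 78.4 CPM in 7 MFN2 libraries, at 3.42 CPM in library 76 and between 1.35 and 2.26 CPM in WT libraries, while Rpsa overlaps between the genotypes.

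Within each library, the counts on the pair fell into separate ranges by the share assigned to the pseudogene. In WT libraries 44, 45, 46 and 47 this share was 0.399%, 0.541%, 0.419% and 0.539%. In MFN2 libraries 41 and 72 it was 23.1% and 23.1%, with exact 95% binomial (Clopper-Pearson) intervals of 22.2% to 24.0% and 22% to 24.2%. In the MFN2 libraries 42, 43, 73, 74 and 75 it was 10.4%, 12.9%, 11.7%, 11.5% and 12.1%, and the intervals of these 5 libraries together spanned 9.85% to 13.8%. Libraries 41 and 72, from different runs of numbers, lay within each other's interval, and no MFN2 library fell between 13.8% and 22% even with its interval. The MFN2 median without library 43 was 11.7%. Library 76 held 0.918% (0.712% to 1.16%), above the share of every WT library, though its interval overlapped with those of WT libraries 45 and 47, which reached 0.717% and 0.740%. The intervals cover counting error only. With every annotated Rpsa pseudogene added to the total, the median share was 11.9% in MFN2 and 0.477% in WT animals, against 11.9% and 0.479% for the pair alone.

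**Figure D3:**
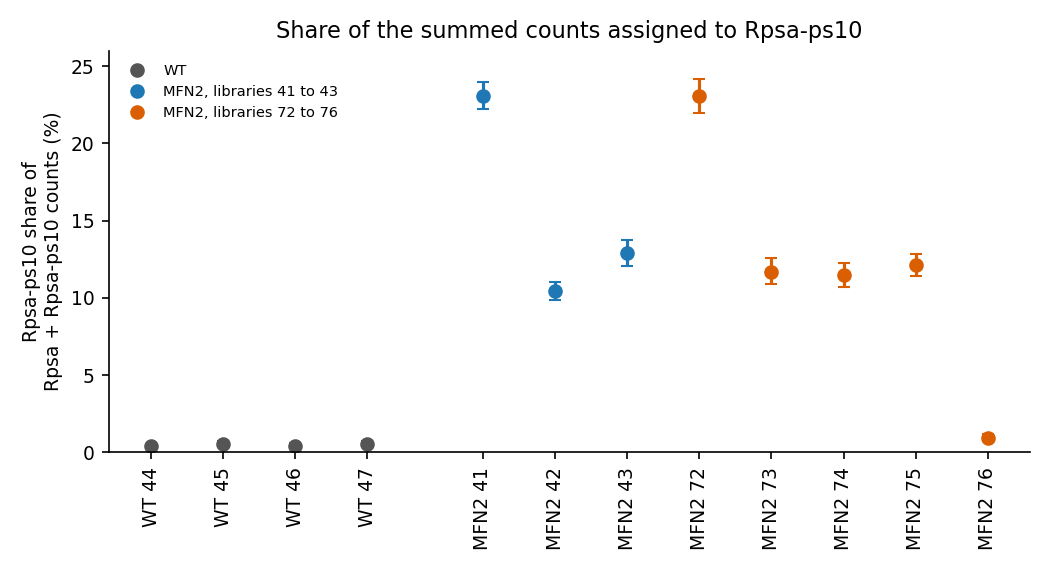
Share of the summed Rpsa and Rpsa-ps10 counts that was assigned to Rpsa-ps10 (vertical axis, percent) in each library (horizontal axis), with exact 95% binomial intervals as error bars, which are smaller than the points in WT libraries. Libraries 41 and 72 lie at 23.1%, 5 MFN2 libraries between 10.4% and 12.9%, and library 76 at 0.918% beside the WT libraries.

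Per length, in RPKM (CPM per kilobase of exon), the level of Rpsa was 86.4 in MFN2 and 119 in WT animals, and that of Rpsa-ps10 was 45.1 and 2.04. Without library 43 the MFN2 levels were 87.4 and 45.5 RPKM. The parent was thus 58.2 times the pseudogene in WT and 1.91 times in MFN2 animals by the ratio of mean RPKM levels, but the MFN2 libraries did not share 1 order. With the Rpsa length used here, the pseudogene was above the parent in libraries 41 and 72, at 88.6 against 82.5 and 64.3 against 59.9 RPKM. In the other 6 MFN2 libraries the parent was higher, with library 76 at 116 RPKM for Rpsa and 3.86 RPKM for Rpsa-ps10. The exon length of 3170 bases used for Rpsa includes all its annotated exons, so its RPKM depends on which of them are transcribed. The Rpsa transcript whose coding bases are compared above is 1938 bases long. Over that length Rpsa would lie above the pseudogene in libraries 41 and 72 as well, and both ratios would be larger. The order in these libraries thus rests on the length chosen.

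The sum of both genes differed less between the genotypes than Rpsa alone did. It was 340, 418, 391 and 368 CPM in WT libraries 44 to 47, then 340, 403 and 289 CPM in MFN2 libraries 41 to 43, and 247, 280, 263, 317 and 372 CPM in libraries 72 to 76. The mean sum was 314 ± 54.7 CPM in MFN2 (SD, n = 8), 317 ± 58.1 CPM without library 43 (SD, n = 7), and 379 ± 33.4 CPM in WT animals (SD, n = 4). On the log2 scale the mean sum differed by -0.29. As the sum holds the counts Rpsa-ps10 was selected on, a smaller difference than that of Rpsa follows from the choice, and the value is a description with no test. Rpsa-ps10 was 38.1 CPM higher in MFN2 than in WT animals, and the difference of Rpsa was -103 CPM, so the pseudogene's difference was the smaller in size. Because the shares fall into separate ranges, no correlation of the 2 genes across libraries is given.

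Neither gene passed the threshold between the runs of library numbers within the MFN2 animals. Between libraries 72 to 76 and libraries 41 to 43, 342 of 15633 genes passed the threshold (2.19% called, edgeR's quasi-likelihood test). The log2 fold change of Rpsa was -0.17 with a standard error of 0.21 (95% interval -0.58 to 0.24, adjusted p = 0.646), and that of Rpsa-ps10 was -0.71 with a standard error of 0.64 (95% interval -1.97 to 0.55, adjusted p = 0.522). Without library 42 the value for Rpsa was 0.0066, so its direction rests on that library, and without library 43 the values were -0.25 for Rpsa (adjusted p = 0.568, edgeR) and -0.90 for Rpsa-ps10 (adjusted p = 0.519, edgeR). The value for Rpsa-ps10 was -0.30 without library 41, -0.42 without library 76 and -1.02 without library 72. The mean share of the pseudogene was 3.61 percentage points lower in the libraries 72 to 76 (two-sided exact permutation test, n = 5 and 3, p = 0.482, smallest possible 0.0179). It was 0.195 points higher without library 41 and differed by -0.872 points without library 76. Without libraries 42 and 72 in turn the difference was -6.13 and -6.41 points, so both its direction and its size rest on single libraries.

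The other 8 annotated pseudogenes of Rpsa were almost silent in every library. Their counts ranged from 0 to 14 per library, and none had enough counts to be tested. The most similar to Rpsa after Rpsa-ps10 was Rpsa-ps2, with 98.8% identity to the coding bases and 47.9% of its 75-base windows identical to the Rpsa message. It held between 0 and 8 counts per library. Rpsa-ps9 followed with 98.2% identity, 16.6% identical windows and 0 to 14 counts. Rpsa-ps4, Rpsa-ps12 and Rpsa-ps1 had identities of 97.5%, 97.3% and 96.6%, and Rpsa-ps11, Rpsa-ps5 and Rpsa-ps3 of 95.7%, 91.6% and 83.6%. None of these copies had a share of identical windows as high as that of Rpsa-ps10 (64.6%). The part of shared reads in these counts was not tested.

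Pseudogenes of ribosomal protein genes were compared by their range over the libraries. For Rpsa-ps10 this range holds the difference it was selected on, so its place among other genes is a description. Of 274 annotated besides Rpsa-ps10, the 8 of Rpsa included, 17 were tested, and the median distance between their lowest and highest library was 1.60 in log2 CPM. That of Rpsa-ps10 was 5.77, that of Rpsa 1.13, and the median of all tested genes 0.81. A wider range than that of Rpsa-ps10 was found in 58 of the tested genes (0.364%). Among the widest of the 17 were Rps15a-ps7 at 5.45, which lay at 0 counts in library 75, Rpl3-ps1 at 3.74, Rps24-ps3 at 2.6 and Rpl14-ps1 at 1.82. Rpl3-ps1, a copy of a 60S subunit gene, was at 35 CPM in library 75 and 19.1 CPM in library 76 and between 2.54 and 3.91 CPM elsewhere, which are other libraries than those highest for Rpsa-ps10. Rps24-ps3 was between 2.01 and 2.56 CPM in libraries 72 to 76, between 0.610 and 0.649 CPM in libraries 41 to 43 and between 0.349 and 0.576 CPM in WT libraries, and was the only 1 of the 17 whose MFN2 libraries all lay above the WT libraries, as 0.979% of all tested genes did. None of the 17 passed the threshold between the genotypes with edgeR (lowest adjusted p of those named 0.254), while DESeq2, which called 1.25% of all tested genes, called Rps24-ps3 (adjusted p = 0.0376) and Rpl14-ps1 (adjusted p = 0.0479). With edgeR both also passed for libraries 72 to 76 against WT (adjusted p = 0.000162 and 0.0281), where 23.8% of all tested genes were called and the genotype and the run cannot be told apart. Rps24-ps3 was above 1 CPM only in libraries 72 to 76 and was tested only through them, so nothing is read from its calls. The median log2 fold change of the 17 between the genotypes was 0.34.

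Among the genes of its own subunit, Rpsa had the lowest fold change in the fit over all libraries, though not in each run of them. The 34 genes of 40S proteins, Rpsa included, were all tested. Of these, 32 had a lower and 2 a higher mean in MFN2 than in WT animals, while 7848 of all 15942 tested genes had a negative fold change. The median log2 fold change was -0.15 against 0.0038 for all tested genes. None passed the threshold, and 13 had an unadjusted p under 0.05, as did 2386 of all 15942 tested genes. In none did the genotypes separate. Of all tested genes, 0.979% had all MFN2 libraries above all WT libraries and 1.07% had them below. Besides Rpsa at -0.46, the lowest log2 fold changes were those of Rps16 at -0.43 and Rps3a1 at -0.38. Within the first run, libraries 41 to 43 against WT, the median was -0.029, Rps16 was at -0.024 and Rps3a1 at -0.084, below which Rpsa lay at -0.36. For libraries 72 to 76 against WT, where 23.8% of all tested genes were called, the median was -0.28, and Rps16 at -0.73 (adjusted p = 0.000147, edgeR) and Rps3a1 at -0.58 (adjusted p = 0.00172, edgeR) were lower than Rpsa at -0.52. With the run as a covariate the median was -0.046. Near the upper end were those of Rack1, a scaffold protein on the 40S head, at 0.0069, and Rps19 at -0.0008, both of which change sign with the scaling or the libraries used. The summed level of the 34 genes was 2657 to 3272 CPM in MFN2 and 3152 to 3504 CPM in WT libraries. In the same comparison all 3 astrocyte genes (median log2 fold change -0.36), all 3 microglial genes (-0.086) and all 4 skeletal muscle genes (-0.41) had lower fitted values, as did 3 of 4 spinal cord level (-0.058), motor neuron (-0.29) and oligodendrocyte (-0.13) genes. All 4 blood genes (0.11) had higher ones, and so did all 7 forebrain neuron genes (2.52), whose sum was 4595 CPM in library 43, 140 to 207 CPM in the other 7 MFN2 libraries and 108 to 142 CPM in WT libraries. The skeletal muscle genes summed to 206 CPM in WT library 47 and 1.22 to 35.5 CPM in the other WT libraries. In MFN2 libraries they summed to 200 CPM in library 73 and 7.82 to 33.9 CPM in the others. The spinal cord level genes summed to 27.3 CPM in library 43, 158 to 220 CPM in the other MFN2 libraries and 167 to 198 CPM in WT libraries. None of these marker genes passed the threshold, and their part in the result was not tested.

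Between the runs of library numbers within MFN2 animals, part of the subunit passed the threshold and Rpsa did not. In libraries 72 to 76, 10 of the 34 genes were lower than in libraries 41 to 43 past the threshold and 0 were higher, where 2.19% of all tested genes were called in either direction, with a median log2 fold change of -0.22 against -0.016 for all tested genes. Among the 10 were Rps7 at -0.63, with the lowest adjusted p of the list (0.00798), Rps14 at -0.72 (adjusted p = 0.0112) and Rps18, with the lowest fold change of the list, at -0.73 (adjusted p = 0.0487), all by edgeR's quasi-likelihood test, adjusted by Benjamini-Hochberg. Rps16, Rps15, Rps3a1, Rps20, Rps12, Rps27 and Rps3 were the others, between -0.71 and -0.40. All 5 libraries lay below all 3 in 15 of the 34 genes, a pattern shown by 8.63% of all tested genes, while the opposite pattern, shown by 9.74%, was found in 0 of them. Rpsa was not among the 10 or the 15, and its difference from them was not tested. The count of 10 depended on the libraries: it was 14 without library 43 and 11 without 42, but 4 without 41 or 76 and 2 without 72, 73, 74 or 75. The calls among all genes, 342 with every library, moved along with it, to 2375 without library 43, 234 without 42, 70 and 85 without 41 and 76, and 31 to 64 without 72, 73, 74 or 75. In libraries 72 to 76 the 3 microglial genes, led by Csf1r, also summed to less, 69.2 to 85.4 CPM against 83.7 to 142 CPM in libraries 41 to 43. All 3 had lower fitted values, as did all 3 astrocyte genes (median log2 fold change -0.30) and all 7 forebrain neuron genes (-3.16). The forebrain difference rests on library 43 at 4595 CPM, as libraries 41 and 42 were at 207 and 176 CPM and libraries 72 to 76 at 140 to 176 CPM. All 4 spinal cord level genes (0.40), all 4 motor neuron genes (0.60), all 4 blood genes (0.58) and all 4 skeletal muscle genes (2.5) had higher ones. Of 4 oligodendrocyte genes, 3 had higher fitted values (median 0.40). The spinal cord level difference also rests on library 43, at a summed 27.3 CPM. Libraries 41 and 42 summed to 220 and 189 CPM, and libraries 72 to 76 to between 158 and 185 CPM. Of these marker genes, 1 microglial gene passed the threshold. Their part in the result was not tested.

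**Figure D4:**
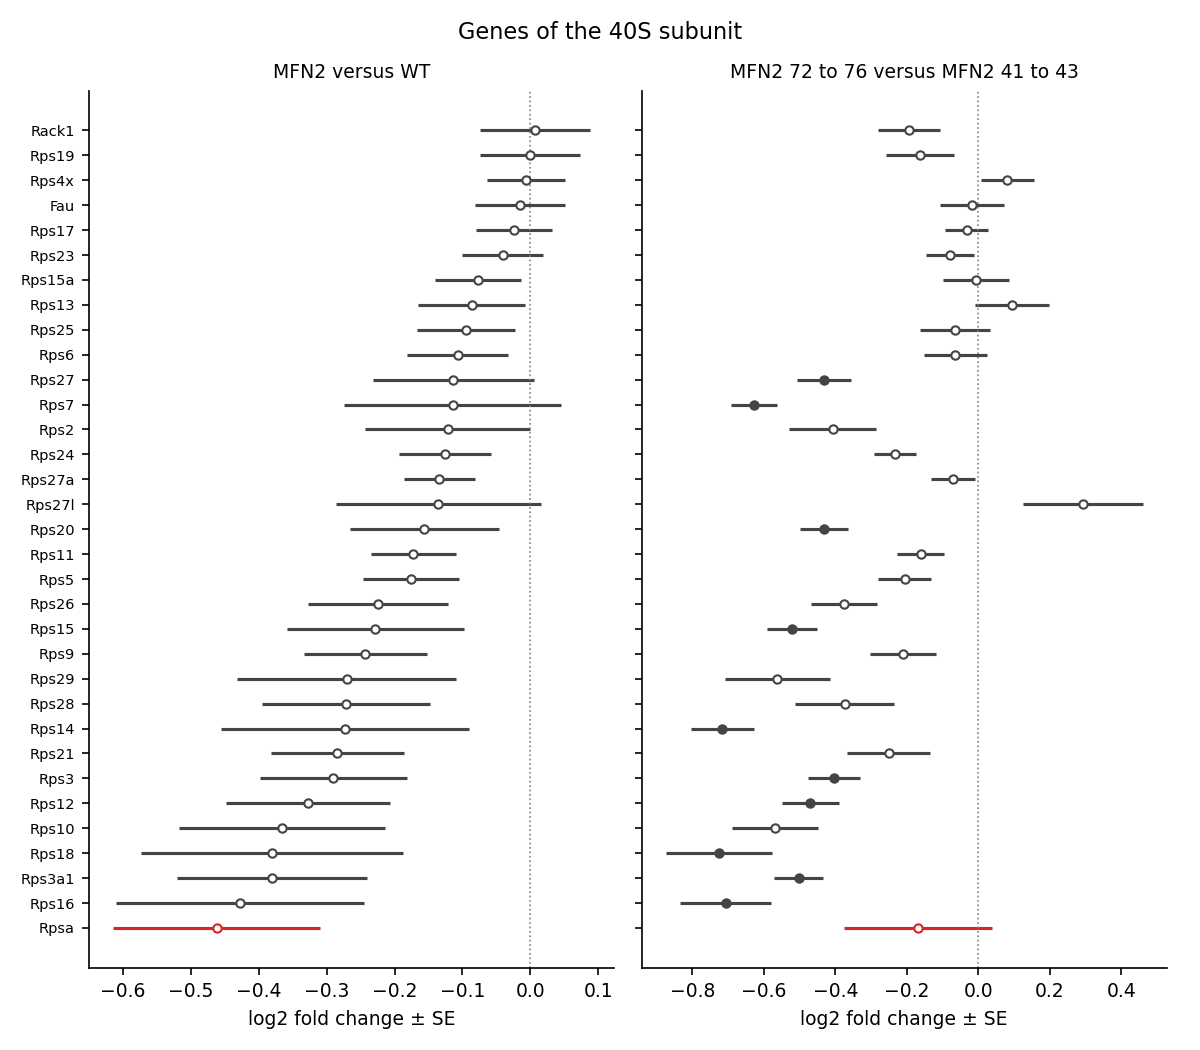
Log2 fold change with its standard error (horizontal axes) of 33 of the 34 genes of the 40S subunit (rows, ordered by the left panel) between MFN2 and WT libraries at left and between MFN2 libraries 72 to 76 and 41 to 43 at right; filled points passed an adjusted p of 0.05. Rpsa, in red, is lowest at left with -0.46 and lies at -0.17 at right, where 10 other genes passed the threshold.

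Laminins and their other receptors showed no common direction. Of 18 genes, 17 were tested, 11 with a higher and 6 with a lower mean in MFN2 animals, a median log2 fold change of 0.046, which turns negative with other libraries or covariates, and none past the threshold. The highest values were those of Lamb1, the laminin beta 1 chain, at 0.67 (adjusted p = 0.317), Lama4 at 0.42 and Lama3 at 0.14. Lamb1 was the only 1 of the 17 whose genotypes separated, all MFN2 libraries being higher (a pattern shown by 0.979% of all tested genes), with library 43 highest at 35.6 CPM. The groups all but touched, with MFN2 library 42 at 12.488 CPM and WT library 44 at 12.485 CPM. Without library 43, Lamb1 was at 0.46, Lama4 at 0.34 and Lama3 at 0.067. Over all libraries left out in turn, Lama4 lay between 0.27 and 0.52. The lowest were Lama5 at -0.37, Itgb4, an integrin subunit that binds laminin, at -0.28 (-0.16 without library 43), and Lamb2 at -0.26. For libraries 72 to 76 against WT, where 23.8% of all tested genes were called, Lama5 at -0.53 (adjusted p = 0.00566, edgeR) and Lamb2 at -0.42 (adjusted p = 0.00199, edgeR) passed the threshold, while libraries 41 to 43 against WT gave -0.12 and -0.022. Between the runs, Lamb2 was lower in libraries 72 to 76 (log2 fold change -0.40, adjusted p = 0.0410, edgeR's quasi-likelihood test), and no other gene of the list passed the threshold, which 2.19% of all tested genes did. Without any 1 library other than 43, Lamb2 no longer passed it, at log2 fold changes of -0.43 to -0.37 (adjusted p from 0.0612 to 0.127, edgeR). Nor did it with no filter on low counts (-0.40, adjusted p = 0.0561) or scaled by library size only (-0.33, adjusted p = 0.0670).

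The genes whose log2 CPM followed Rpsa-ps10 most closely over the 12 libraries were ranked by Pearson's r, as a description. The points share the genotype difference and the scaling of the libraries. The first was Gm47113, a long non-coding RNA gene, with r = 0.898, followed by Rpl14-ps1, a processed pseudogene of a 60S protein gene, with r = 0.888. Next came Gopc (0.856), a Golgi protein with a PDZ domain, Snx4 (0.850), a sorting nexin of endosomes, Zscan18 (0.847), a zinc finger gene, and Crnkl1 (0.845), a splicing factor. Terf2, which binds telomeres, had 0.839, Ctdspl2, a phosphatase gene, 0.838, Nppc, the precursor of C-type natriuretic peptide, 0.834 and Khdrbs2, an RNA-binding protein, 0.828. Within the 8 MFN2 libraries alone, r was 0.819 for Gm47113, 0.760 for Rpl14-ps1 and 0.857 for Khdrbs2, but 3.25e-05 for Snx4. It was 0.655 for Nppc, 0.573 for Gopc, 0.508 for Ctdspl2, 0.481 for Crnkl1, 0.470 for Zscan18 and 0.304 for Terf2. All were picked on an r over libraries that include these 8. Gm47113 was at 2.29, 1.22 and 2.35 CPM in libraries 41 to 43, at 2.77, 1.86, 1.53 and 1.70 CPM in libraries 72 to 75 and at 0.816 CPM in library 76, beside 0.873, 0.424, 0.487 and 0.783 CPM in WT libraries. For Gm47113, library 76 lay within the WT range, whereas for Rpsa-ps10 it lay just above it. For Rpsa the closest were Gtf2e2, a subunit of the general transcription factor TFIIE (0.904), Ckb, the brain creatine kinase (0.901), Rdm1 (0.90), Zfp959 (0.899) and Dbndd2 (0.889).

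None of the 10 genes closest to Rpsa-ps10 lies on its chromosome 3, and the closest, Gm47113, lies on chromosome 9 at 1.74 Mb from Rpsa. The surroundings of both genes were therefore compared after these values had been seen. Within 5 Mb of Rpsa-ps10, 0 of 47 tested genes had an r with Rpsa-ps10 of at least 0.7 in size. Within 5 Mb of Rpsa, 6 of 91 had (6.59%), and of all tested genes 1.76% had. As r over the 12 libraries holds the genotype difference that Rpsa-ps10 was selected on, and Gm47113 both prompted the comparison and is 1 of the 6, these shares describe the surroundings and nothing is read from them. They included Gm47113, the zinc finger gene Zkscan7 (0.749), the translation factor gene Eif1b (-0.774), Acaa1a, a thiolase of peroxisomal fatty acid oxidation (-0.868), and Myd88, the adaptor of Toll-like receptors (-0.896).

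Acaa1a was at 20.4, 26.4 and 20.7 CPM in libraries 41 to 43, at 14.5, 24.7, 25.5, 26.2 and 31.8 CPM in libraries 72 to 76, and at 34.1, 38.1, 36.7 and 43.1 CPM in WT libraries. All MFN2 libraries lay below all WT libraries, a pattern shown by 1.07% of tested genes, with library 76 the nearest to WT and libraries 72 and 41 the farthest. Myd88 was at 3.40, 4.62 and 4.18 CPM in libraries 41 to 43, at 3.30, 4.06, 3.38, 4.14 and 5.3 CPM in libraries 72 to 76, and at 6.59, 5.98, 5.09 and 5.69 CPM in WT libraries. Library 76 was again the highest MFN2 library and overlapped with WT. Both genes were picked for their r with Rpsa-ps10, so an order of libraries like that of Rpsa-ps10 follows from the choice. Eif1b did not have this order: it was at 63.4, 63.2 and 56.7 CPM in libraries 41 to 43, at 55.8, 50.3, 54.2, 56.7 and 58.3 CPM in libraries 72 to 76, and at 79.1, 69.8, 75.6 and 75.9 CPM in WT libraries. Neighbouring genes share a chromosomal segment, so these 6 are not independent of each other. Whether their levels differ between mouse strains was not tested.

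**Figure D5:**
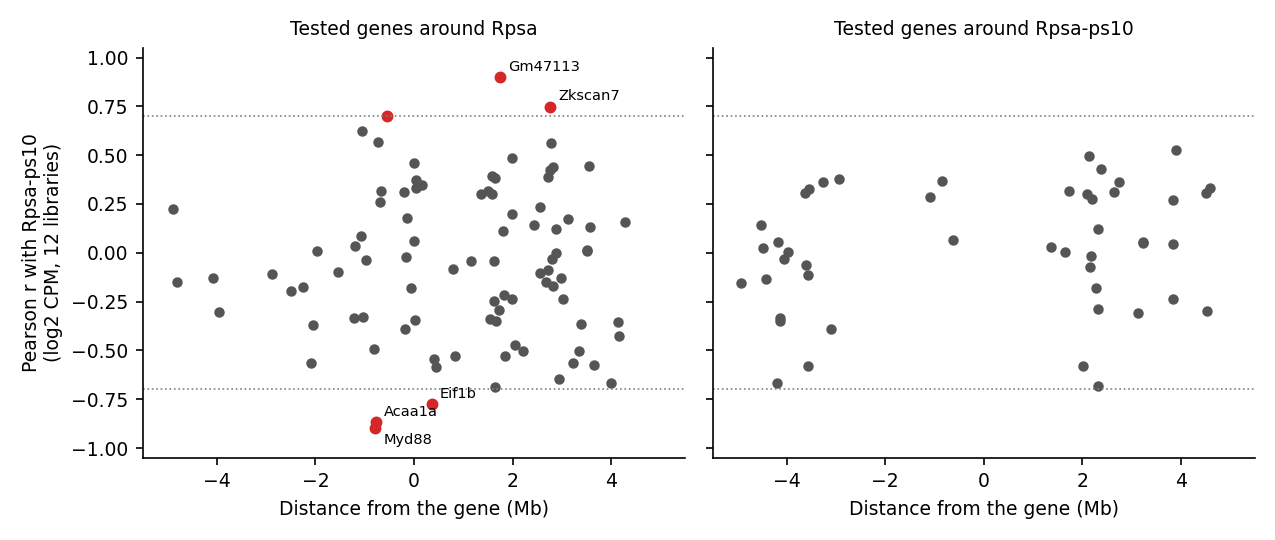
Pearson's r with Rpsa-ps10 over the 12 libraries (vertical axis, log2 CPM) of tested genes against their distance in megabases from Rpsa (left) and from Rpsa-ps10 (right); red points are at least 0.7 in size, marked by dotted lines. Among the 91 genes around Rpsa, 6 are past these lines, and among the 47 around Rpsa-ps10, 0 are.

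Closer to Rpsa, 36 genes are annotated within 500 kb and 14 were tested, and 0 passed the threshold between the genotypes with edgeR. DESeq2 called 1 of those named here, Eif1b (adjusted p = 0.000482), which with edgeR passed without library 43 (adjusted p = 0.0444), where 19 genes did (0.12% called), and for libraries 72 to 76 against WT (adjusted p = 0.000381), where 23.8% of all tested genes did. Eif1b, 359863 bases away, had 57.3 ± 4.38 CPM in MFN2 (SD, n = 8) and 75.1 ± 3.84 CPM in WT animals (SD, n = 4), a log2 fold change of -0.39 with an adjusted p of 0.162 (edgeR's quasi-likelihood test), and all its MFN2 libraries lay below the WT libraries, as in 1.07% of all tested genes. The same was true of Rpl14, a 60S protein gene 439075 bases away, at a smaller log2 fold change of -0.095. The next coding gene, Slc25a38, a mitochondrial carrier 3185 bases from Rpsa, was at 0.097, and Mobp, a myelin protein gene, at -0.23 (-0.11 without library 43). Cx3cr1, the fractalkine receptor of microglia, was at -0.20, Wdr48 at 0.11, Gorasp1 at -0.16, Ttc21a at -0.26, Csrnp1 at 0.12, Myrip at 0.12 (0.021 without library 43) and Entpd3 at -0.50, and the non-coding genes Gm38642 and Gm37111 at 1.24 and 0.60, all with overlapping genotypes. Without library 43, Cx3cr1 was at -0.32, Wdr48 at 0.051 and Csrnp1 at 0.044. Inside Rpsa lie small nucleolar RNA genes, of which only Gm26448 was tested, at 1.56 ± 0.554 CPM in MFN2 (SD, n = 8) and 0.781 ± 0.15 CPM in WT animals (SD, n = 4), a log2 fold change of 0.99 (adjusted p = 0.278, edgeR). Its level was 0.687, 0.955 and 1.27 CPM in libraries 41 to 43, where it overlapped with WT, and 1.63 to 2.25 CPM in libraries 72 to 76, which against WT gave 1.29 (adjusted p = 0.00213, edgeR). Gm26448 was above 1 CPM only in library 43 and libraries 72 to 76 and was tested only through them, so nothing is read from its call. Also past the threshold for libraries 72 to 76 against WT were Gm38642 at 1.65 (adjusted p = 0.00633), Gm37111 at 0.84 (adjusted p = 0.005), Cx3cr1 at -0.51 (adjusted p = 0.00115) and Gorasp1 at -0.27 (adjusted p = 0.0229), and Gm37111 was at 0.11 within the first run. Gm38642 too was above 1 CPM only in libraries 72 to 76, so nothing is read from its call. Snora62 held 87 counts over all libraries and Gm24044 held 0. Of the 2 genes annotated within 500 kb of Rpsa-ps10, neither was tested.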

How the data were processed

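The authors aligned paired-end reads of 75 bases with STAR to GRCm38.p6, per the submitters' processing notes and the study's methods, and deposited raw counts, as whole numbers for each Ensembl gene in each library. Which program counted the reads, and whether by strand, is not given in the sources used here. Genes were named by GENCODE M21 (GRCm38). Genes above 1 CPM in at least 3 libraries were tested with edgeR 4.0.16 (R 4.3.3), scaled by TMM, with the quasi-likelihood test and Benjamini-Hochberg adjustment at 0.05; DESeq2 1.42.0 was an alternative. Log2 CPM used a prior count of 2. Nothing says whether the mice came from separate litters, so p-values measure the spread between these libraries. In every pair of libraries of the same genotype, at least 15700 tested genes had different counts. The members, gene lists and rules were chosen with earlier results of these data known. Named genes were both members, all Rpsa pseudogenes, the 3 highest and 3 lowest of each list and those past the threshold, the genes closest in pattern, tested neighbours within 500 kb, small nucleolar RNAs inside Rpsa, and the 5 ribosomal protein pseudogenes of widest range; Zkscan7, Acaa1a and Myd88 were added after their values were seen. Some genes that the rule names are not reported here. On simulated data with a log2 fold change of 1, edgeR recovered 171 of 198 changed genes for MFN2 against WT among 15659 genes, with 9 false calls. Between the runs it recovered 131 of 196 among 15396, with 6 false calls. These counts hold for the simulated data only, and whether its spread matched that of the real libraries was not tested. In the real MFN2 and WT libraries 0 of 15942 genes passed (lowest adjusted p = 0.111, edgeR's quasi-likelihood test). The recovered counts are therefore not read as the power of the fits reported here.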

Additional observations from a re-analysis of the deposited data

Results flagged for a closer look

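Of 177 groups of 4 to 10 libraries examined, 21 had a highest or lowest library whose gap to the next, divided by the range of the group, passed the 95% limit, where chance gives about 1 in 20, or 8.85. Rpsa was in none of them. Rpsa-ps10 was lowest in library 76, with a ratio of 0.693 among the 8 MFN2 libraries and 0.773 among libraries 72 to 76.

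Library 76 was involved in 7 of the 21. Besides Rpsa-ps10, it was lowest for Khdrbs2 (0.616 among MFN2 libraries and 0.787 among 72 to 76) and for Ttc21a (0.769 among 72 to 76), and highest for Dbndd2 (0.811) and the summed astrocyte genes (0.713), both among 72 to 76. Khdrbs2 was among the 10 genes picked for a pattern close to that of Rpsa-ps10, so its low value in library 76 follows from the choice. Dbndd2 was picked for a pattern close to that of Rpsa, which was itself highest among MFN2 libraries in library 76. Its high value there follows from the choice as well.

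Library 43 was involved in 9. Among the MFN2 libraries it was highest for the summed forebrain neuron genes (0.887), Wdr48 (0.617) and Myrip (0.592). It was lowest for the summed spinal cord level (0.841), motor neuron (0.735) and oligodendrocyte (0.654) genes, and for Entpd3 (0.7), Mobp (0.651) and Itgb4 (0.58).

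Library 73 was highest among MFN2 libraries for the summed blood (0.544) and skeletal muscle (0.548) genes, and among 72 to 76 for Lama4 (0.954). Among WT libraries, 44 stood apart for Rps3a1 (lowest, 0.932) and 45 for Lama4 (highest, 0.909).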

How the results depend on the processing

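The fold change of Rpsa between MFN2 and WT animals was negative under every alternative run, from -0.53 to -0.27, and passed the threshold only for libraries 72 to 76 against WT (-0.52, adjusted p = 0.0493, edgeR); leaving out 1 library gave -0.53 to -0.40, with adjusted p from 0.154 to 0.554. The exact permutation result for Rpsa lost its call for libraries 41 to 43 against WT (-0.39, p = 0.0571) and without WT library 45 (-0.44, p = 0.0788) or 46 (-0.47, p = 0.0667), within a range of -0.55 to -0.42 over libraries left out. With the pseudogene added the value was -0.29, but as Rpsa-ps10 was chosen for higher counts in MFN2 animals, a move toward 0 follows from the choice and nothing is read from it. Between the runs, Rpsa ranged from -0.31 to 0.0066, positive only without library 42, and the share of the pseudogene differed by -6.41 to 0.195 percentage points with 1 library left out, positive only without library 41. Genes called between the genotypes numbered 200 with DESeq2, 1 for libraries 41 to 43 and 3746 for libraries 72 to 76 against WT, and 0 to 19 with 1 library left out (19 without library 43, 7 without 41 and 1 without 76). Between the runs they numbered 1795 with DESeq2 and 31 to 2375 with 1 library left out (2375 without library 43, 31 without 74). The median of the laminin genes was -0.065 with the number run as a covariate, and the cause was not tested. Signs turned for Rps19 (0.047 by library size only, 0.0063 with DESeq2, 0.10 for libraries 41 to 43, 0.083 with the run as a covariate, -0.043 to 0.023 with 1 library left out), Rack1 (-0.062 for libraries 72 to 76, -0.042 to 0.053 with 1 left out), Cx3cr1 (0.21 for libraries 41 to 43, 0.19 with the covariate), Slc25a38 (-0.014 and -0.028 likewise), Gorasp1 (0.0078 for libraries 41 to 43), Myrip (-0.033 for libraries 72 to 76) and Ttc21a (-0.50 to 0.22 with 1 left out). The run as a covariate, and the alternatives of the Rpsa-ps10 description, of the pseudogene share and of the 40S genes and Lamb2 between the runs, were chosen after seeing the data. No paired analysis was possible because MFN2 and WT libraries have no number in common. Depth limits the other Rpsa pseudogenes, at 0 to 14 counts per library, more than Rpsa or Rpsa-ps10.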
